A study of Mus musculus with 8 samples.

Results

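The interferon signalling and response genes are 46 mouse genes chosen by symbol from the interferon pathway. They comprise 4 receptor chains, 3 JAK kinases, 8 STAT and IRF transcription factors, 2 feedback inhibitors, 23 induced genes of the type I-like programme and 6 interferon gamma GTPases. Of the 46 genes, 44 had at least 1 probe set among the 18193 genes named on the array, and these genes held 76 probe sets in all. Ifi44 and Isg15 had no probe set of their own here. Their levels were compared between LB-22 cells, an immortalized line of embryonic mouse kidney, that received Wt1 siRNA and cells that received a scrambled control siRNA, with 4 arrays in each group.

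All 8 samples shared their handling apart from the siRNA. The cells were expanded at 33 °C with 10 U/ml interferon gamma, and at transfection they were moved to 37 °C in medium without interferon. They received 25 pmol of siRNA in 25 µl Lipofectamine 2000 for 6 h and were grown for 48 h. Controls therefore carried the same past exposure to interferon gamma, and no sample without it was analysed here. The labels name 1 siRNA per group, so the loss of Wt1 and the siRNA molecule itself cannot be told apart. Whether the replicates were separate cultures is not stated in the labels, and p-values then measure no more than the spread among these 8 samples, which may be technical. In bulk RNA, fewer cells with a transcript and less transcript per cell cannot be told apart.

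Type I interferons bind the receptor chains Ifnar1 and Ifnar2, and interferon gamma binds Ifngr1 and Ifngr2. The receptors signal through JAK kinases to STAT factors. STAT2 and IRF9 act in a complex that binds the interferon-stimulated response element, while interferon gamma signalling acts through the gamma-activated site. The first route is known for antiviral genes such as the Oas and Ifit families, and the second for GTPases that act on intracellular parasites and bacteria, although many genes answer to both.

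Promoter sequence was set beside the measurements because these 2 routes act through different DNA elements. RefSeq promoter windows (GRCm38.p6, from 250 bases before to 50 bases after an annotated start) were held for 39 of the 46 members. No window was held for Oas2, Dhx58, Mx1, Mx2, Parp14, Iigp1 and Usp18. The core of the response element was searched as GAAANNGAA and that of the gamma-activated site as TTCNNNGAA, on both strands. A match may overlap another match of either core, and the second core reads the same on both strands. The following stretches of 60 bases, written 5′ to 3′ on the strand of the gene, are shown for members that were higher (Oas3, Stat2), lower (Ifit1, Ifit3, Ifih1, Gbp3) or not past the threshold (Igtp) after Wt1 siRNA. Capitals mark the matches to either core.
Oas3: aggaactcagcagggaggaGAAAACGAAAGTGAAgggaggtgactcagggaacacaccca
Stat2: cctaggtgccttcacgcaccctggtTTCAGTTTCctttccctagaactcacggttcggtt
Ifit1: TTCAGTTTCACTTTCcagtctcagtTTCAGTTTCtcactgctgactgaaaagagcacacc
Ifit3: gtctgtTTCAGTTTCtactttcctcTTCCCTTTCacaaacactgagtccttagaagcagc
Ifih1: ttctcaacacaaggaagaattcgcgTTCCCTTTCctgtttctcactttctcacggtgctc
Gbp3: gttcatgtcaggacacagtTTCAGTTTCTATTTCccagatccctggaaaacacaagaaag
Igtp: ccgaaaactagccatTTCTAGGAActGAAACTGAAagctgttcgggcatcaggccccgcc

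The Oas3 stretch lies at chr5:120777694-120777753 on the minus strand, 94 to 35 bases before the start. Stat2 is read from chr10:128270252-128270311 on the plus strand, 246 to 187 bases before the start. The Ifit1 stretch, at chr19:34640780-34640839 on the plus strand, runs from 109 to 50 bases before the start. That of Ifit3, at chr19:34583402-34583461 on the plus strand, runs from 127 to 68 bases before it. Ifih1 is read from chr2:62646333-62646392 on the minus strand, 137 to 78 bases before the start. The Gbp3 stretch, at chr3:142559981-142560040 on the plus strand, runs from 63 to 4 bases before the start, and that of Igtp, at chr11:58199496-58199555 on the plus strand, from 60 to 1. Igtp holds both cores side by side, and the other 6 stretches hold the response element core only.

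The response element core was found in 19 of the 39 members (48.7%), against 9.76% of all 27025 genes with a window. Counted by window, it was in 39.6% of the 48 member windows and 8.56% of all 32851. The gamma-activated site core was found in 13 of the 39 members (33.3%), against 9.55% of all genes. By window, it was in 27.1% of the 48 member windows and 8.3% of all windows. Of the type I-like genes with a window, 12 of 18 held the response element core, as did 4 of 5 GTPases, 2 of 8 STAT and IRF factors, 0 of 4 receptors and 0 of 3 JAK kinases. The gamma-activated site core was in 7 of 18 type I-like genes, 1 of 5 GTPases and 3 of 8 STAT and IRF factors. It was also in 2 of 4 receptors and 0 of 3 JAK kinases. Among the members with a window that were tested, the response element core was in 5 of 9 that were higher after Wt1 siRNA. It was in 5 of 8 that were lower and in 7 of 20 that did not pass the threshold. For the gamma-activated site core these counts were 4 of 9, 2 of 8 and 7 of 20. A match is a description of letters in this window, not a binding site.

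**Figure D1:**
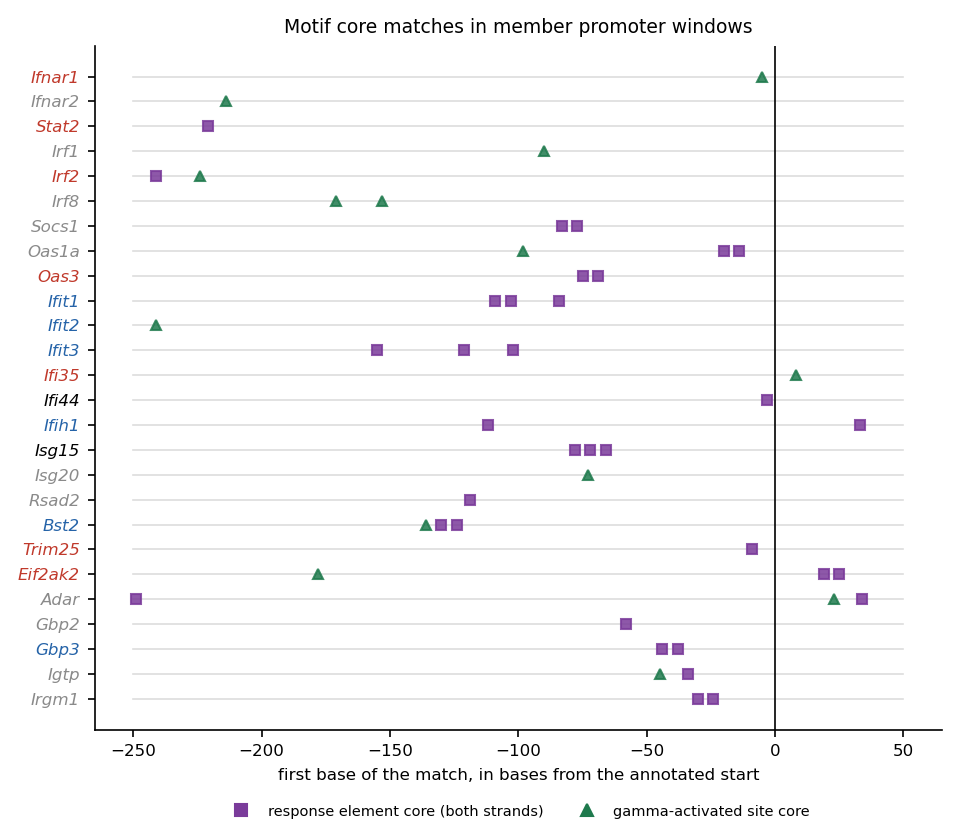
Position of each motif core match in the promoter windows of the members that hold at least 1 match, in bases from the annotated start (vertical line). Squares are response element cores, triangles gamma-activated site cores, grey lines the windows, and names are red for genes higher after Wt1 siRNA, blue for lower, grey for not past the threshold and black for no probe set. Matches lie before the start of Oas3, which was higher, as well as of Ifit1 and Ifit3, which were lower.

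The siRNA target was checked first. The signal of Wt1, a transcription factor gene needed for kidney development, was 8396.8, 7129.4, 8197.2 and 7423.0 on control arrays 1 to 4 and 1679.3, 1531.0, 1316.8 and 1913.9 on the Wt1 siRNA arrays. The groups did not overlap, and Wt1 fell to 20.5% of control (log2 difference -2.28 ± 0.11 SE, limma adjusted p = 5.91e-08; two-sided exact permutation p = 0.0286, which is the lowest value that 4 arrays per group can give). Signals are linear MAS5 intensities, which are not comparable between probe sets. The highest signal of 27 control probe sets for Bacillus transcripts, 227.2, served as the background level. Control array 3 and Wt1 siRNA array 4 stood apart, with mean correlations to their own group of 0.969 and 0.971 against 0.977 to 0.980 for the other 6. The transferrin receptor 3′ control read 418.5 on control array 3 and 1054.6 to 1546.2 elsewhere, and the cre hybridisation control read 84919.9 on Wt1 siRNA array 4 and 48530.4 to 59830.1 elsewhere. Of the kidney mesenchyme markers besides Wt1, Osr1, Hoxa10 and Hoxa11 were bright enough to test. Osr1 was higher after Wt1 siRNA by 0.75 (limma adjusted p = 0.00502) and Hoxa10 by 0.48 (adjusted p = 0.0219), the latter not when its probe sets were averaged. Hoxa11 differed by 0.21 (adjusted p = 0.211). Six2 (246.3 to 573.0) and Eya1 (256.7 to 424.2) were above background on all 8 arrays but too dim to test. Sall1, Foxd1 and Meox1 were at or under background on all 8 arrays, and Hoxd11 on 7.

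Tests ran on the brighter part (a share of 0.5) of the named genes, 9096 genes with 1 probe set each, and 42 members were among them. Mx1 and Mx2, dynamin-like antiviral GTPases, were too dim: Mx1 read 81.4 to 189.7, at or under background on all 8 arrays, and Mx2 read 67.7 to 240.9. A gene was called when its adjusted p, from limma with Benjamini-Hochberg adjustment over the 9096 genes, was under 0.05. Of the 42 tested members, 12 were higher and 8 lower after Wt1 siRNA, so that 47.6% were called against 37.3% of all tested genes. The 12 higher members are 28.6% of those tested against 18.8% of all genes, and the 8 lower ones are 19% against 18.5%, a share near the background. The median log2 difference was 0.03 over the 42 members and 0.02 over all tested genes. Scaling moved the lower count more than the higher one: members divided into 12 higher and 3 lower with arrays centred on their median, which shifts the median of all tested genes by 0.11, and into 12 higher and 13 lower after quantile normalization. Under centring 17.4% of all genes were higher and 8.63% lower, and after quantile normalization 19.5% and 18.8%.

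For 16 of the 42 members (38.1%) the 2 groups did not overlap, against 36.3% of all tested genes. A difference of at least 0.5 on the log2 scale together with a call was seen for 10 members, 7 higher (Oas2, Dhx58, Oasl1, Stat2, Irf2, Eif2ak2 and Oas3) and 3 lower (Irf9, Ifit2 and Ifih1), where 15.7% of all tested genes met both conditions.

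**Figure D2:**
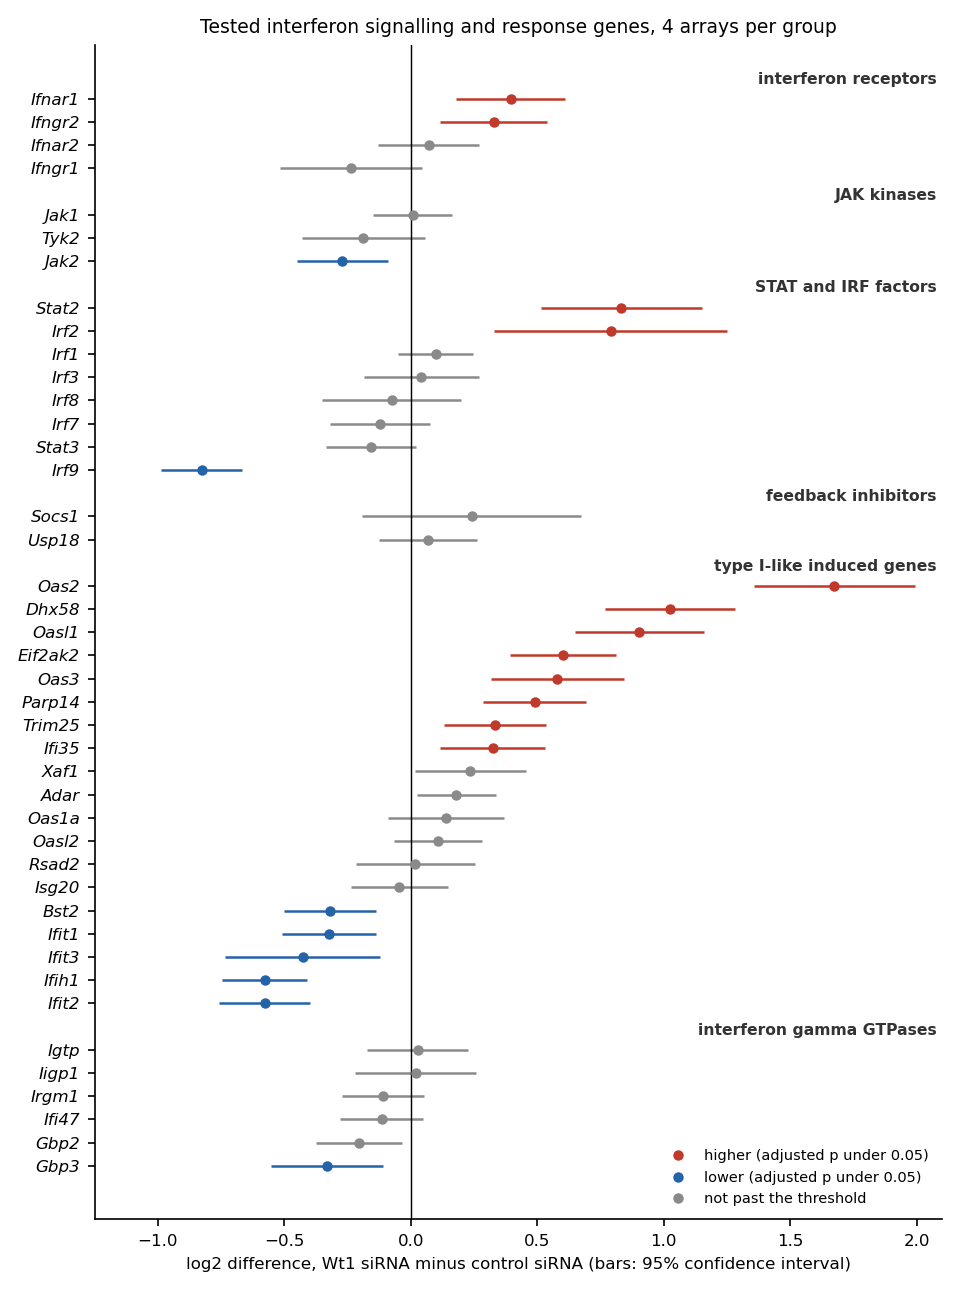
Log2 difference (Wt1 siRNA minus control siRNA) of each of the 42 tested members, grouped by role, with bars for the 95% confidence interval of the limma fit over 4 arrays per group. Colour gives the call at an adjusted p under 0.05; Oas2 stands farthest to the right at 1.67 and Irf9 farthest to the left at -0.83, and the GTPases lie between -0.33 and 0.03.

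The receptor chains showed small differences, all under 0.5 for the probe set used for the gene. Ifnar1, a chain of the type I receptor, read 2028.4 to 2488.2 on control and 2571.1 to 3229.6 on Wt1 siRNA arrays, without overlap, and was higher by 0.39 ± 0.10 (limma adjusted p = 0.00754). Its mean over both probe sets was 0.25 (adjusted p = 0.25), and the second probe set was at or under background on 6 of 8 arrays. Ifngr2, a chain of the interferon gamma receptor, was higher by 0.33 ± 0.10 (limma adjusted p = 0.018) with overlapping groups. That call was lost without both arrays that stood apart (0.19, adjusted p = 0.0656) and when its probe sets were averaged (0.19, adjusted p = 0.0794), and the second Ifngr2 probe set differed by 0.06. Ifngr1, the ligand-binding chain of that receptor, was not past the threshold at -0.24, with a 95% interval from -0.52 to 0.04.

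The probe sets of Ifnar2, the other chain of the type I receptor, differed from each other. The brightest one, used for the gene, gave 0.07 with a 95% interval from -0.13 to 0.27. A second one read 752.5, 653.2, 778.2 and 817.5 on control arrays and 1433.2, 1689.7, 1446.3 and 1322.6 on Wt1 siRNA arrays. On this second probe set every Wt1 siRNA array was above every control array, with a log2 difference of 0.97 (limma adjusted p = 0.000301 over all probe sets). It carries the _x_at suffix, which marks probes that can match other transcripts. The last gave 0.70 (adjusted p = 0.0572). With the 3 probe sets averaged, Ifnar2 passed the threshold (0.58, limma adjusted p = 0.00466).

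Of the kinases that sit on these receptors, only Jak2, which serves the interferon gamma receptor, was called, and in the lower direction. Its signal was 4747.4 to 5635.3 in control and 3921.9 to 4530.0 after Wt1 siRNA, a difference of -0.27 ± 0.08 (limma adjusted p = 0.0205). The call was lost under median centring (-0.16, adjusted p = 0.447) and without control array 2 (adjusted p = 0.0636) or Wt1 siRNA array 2 (adjusted p = 0.0718). Jak1, which serves both receptors, differed by 0.01 (95% interval -0.15 to 0.16), and Tyk2, of the type I receptor, by -0.19 (-0.43 to 0.05).

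Of the 8 transcription factors, 2 rose and 1 fell, which is 37.5% beside 37.3% of all tested genes and thus at the background share. Stat2 and Irf9, which encode partners in one complex, moved in opposite directions. Stat2 read 4601.5, 4436.1, 2953.5 and 4523.5 on control arrays and 6228.2, 6998.2, 6740.9 and 9309.0 on Wt1 siRNA arrays. No arrays overlapped, although the lowest control and the highest Wt1 siRNA value came from the arrays that stood apart. The mean signal rose from 4128.6 ± 786.3 to 7319.1 ± 1364.7 (SD, n = 4), a log2 difference of 0.83 ± 0.15 or 1.78-fold (limma adjusted p = 0.000705). Without both of those arrays the difference was 0.56 (limma adjusted p = 0.000101). The second Stat2 probe set, which read 1879.4 to 2349.8 in control and 3305.3 to 3901.8 after Wt1 siRNA, gave 0.87 (limma adjusted p = 9.93e-05).

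Irf9 encodes the DNA-binding subunit of that complex. It read 5322.5, 5622.7, 5276.3 and 5590.1 on control arrays and 3251.4, 3197.5, 2864.7 and 2995.4 on Wt1 siRNA arrays. Both groups were tight and far apart, with means of 5452.9 ± 178.7 and 3077.2 ± 179.5 (SD, n = 4). Irf9 fell to 56.4% of control, a log2 difference of -0.83 ± 0.07 (limma adjusted p = 3.07e-06).

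Irf2, a factor known mainly as an antagonist of IRF1, was called higher on less even data. It read 2125.3, 1056.4, 1155.8 and 1276.0 on control arrays and 2232.0, 2281.8, 1763.6 and 3292.2 on Wt1 siRNA arrays. The groups overlapped, since control array 1 lay above Wt1 siRNA array 3. The difference was 0.79 ± 0.21, or 1.73-fold (limma adjusted p = 0.0106), and the call was lost without both arrays that stood apart (0.55, adjusted p = 0.0637). Its probe set can match several transcripts of related sequence, as its _s_at suffix shows.

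The other 5 factors did not pass the threshold. Irf1, which drives part of the interferon gamma response, differed by 0.10 (95% interval -0.05 to 0.24), with signals of 17209.4 to 20046.3 over all arrays. Irf7, which amplifies type I interferon production, differed by -0.12 (-0.32 to 0.08). Irf3, the factor activated by viral nucleic acid sensing, differed by 0.04 (-0.19 to 0.27), and Irf8, best known from myeloid cells, by -0.08 (-0.35 to 0.20). Stat3, the main factor of interleukin 6 signalling, differed by -0.16 (-0.33 to 0.02). The directions of Irf3 and Irf8 turned under some alternatives.

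Both feedback inhibitors were also within the threshold. Socs1, which blocks JAK kinases, read 687.1 to 1276.7 in control and 918.3 to 1504.0 after Wt1 siRNA, and its interval was wide (0.24, 95% interval -0.19 to 0.67), and 0.0027 without both arrays that stood apart. Usp18, which removes ISG15 from proteins and damps signalling at the type I receptor, differed by 0.07 (-0.13 to 0.26).

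**Figure D3:**
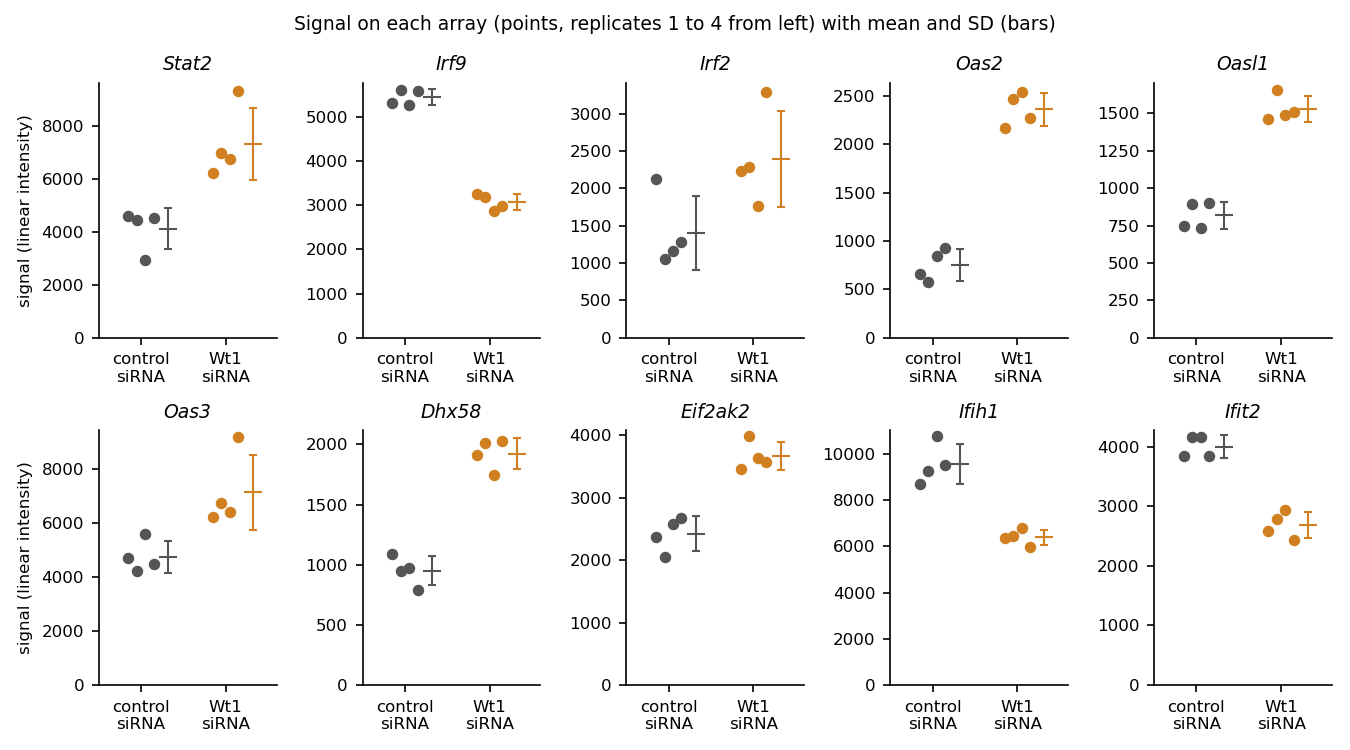
Signal (linear MAS5 intensity, axes from 0) on each array for the 10 members called with a log2 difference of at least 0.5, replicates 1 to 4 from left, with the mean and SD of 4 arrays as bars. The 2 groups overlap for Irf2 only, where control array 1 at 2125.3 lies above Wt1 siRNA array 3 at 1763.6.

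The type I-like genes, which encode proteins that sense or block viruses, were called most often of the member groups. Of the 23 listed, 21 had a probe set and 19 were tested, and 8 were higher and 5 lower after Wt1 siRNA. This is 68.4% called beside 37.3% of all tested genes, and for 12 of the 19 (63.2%) the groups did not overlap beside 36.3%. The median log2 difference was 0.18 as deposited, 0.29 under median centring and 0.17 after quantile normalization, where the medians of all tested genes were 0.02, 0.12 and 0.02.

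The oligoadenylate synthetase family, whose enzymes sense double-stranded RNA and activate RNase L, rose in part. Of the 5 listed here 3 rose, where 18.8% of all tested genes were higher, and 2 did not pass the threshold. Oas2 read 662.0, 573.2, 844.6 and 923.3 on control arrays and 2165.8, 2464.2, 2533.5 and 2269.6 on Wt1 siRNA arrays. The difference of 1.67 ± 0.15, or 3.19-fold (limma adjusted p = 2.63e-06), was the largest among the tested members.

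Oasl1, an Oas-like protein known to restrain translation of Irf7, read 747.4, 895.3, 736.4 and 902.5 on control arrays and 1463.0, 1657.5, 1487.2 and 1510.5 on Wt1 siRNA arrays. The groups did not overlap, and it rose 1.87-fold (0.90 ± 0.12, limma adjusted p = 7.27e-05). Oas3 read 4691.3, 4200.3, 5593.6 and 4461.1 on control arrays and 6228.7, 6722.9, 6389.6 and 9170.1 on Wt1 siRNA arrays. It was higher on every Wt1 siRNA array than on any control array, with a difference of 0.58 ± 0.12 (limma adjusted p = 0.00231). Oas1a and Oasl2 of the same family did not pass the threshold, at 0.14 (95% interval -0.09 to 0.37) and 0.11 (-0.07 to 0.28), and Oas1a passed without both arrays that stood apart (0.28, adjusted p = 0.0306). Oas1b and Oas1c, tested among the other pathway genes, did not pass either, at 0.08 and -0.36 (limma adjusted p = 0.789 and 0.0609). Thus 3 of 7 tested genes of the family rose, beside 18.8% of all tested genes. Oas1c was lower on every Wt1 siRNA array than on any control array. The differences between family members were not tested. Oas2 and Oas3 are consecutive protein-coding genes in RefSeq GRCm38.p6, as are Oasl2 and Oasl1.

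The 3 Ifit genes, whose proteins bind viral RNA and limit its translation, were all lower, where 18.5% of all tested genes were lower. Ifit2 read 3845.8, 4158.9, 4165.8 and 3836.7 on control arrays and 2586.5, 2781.0, 2939.4 and 2433.8 on Wt1 siRNA arrays. The groups did not overlap, and Ifit2 fell to 67.0% of control (-0.58 ± 0.08, limma adjusted p = 0.000156). Ifit1 read 4184.3 to 5236.6 in control and 3541.8 to 3938.7 after Wt1 siRNA, a difference of -0.32 ± 0.09 (limma adjusted p = 0.00916), which was lost under median centring (-0.22, adjusted p = 0.309). Ifit3 read 3527.1, 5306.1, 6320.6 and 4133.5 on control arrays and 3509.8, 3541.4, 3452.0 and 3483.5 on Wt1 siRNA arrays. Its control values spread widely and overlapped the tight Wt1 siRNA group. The Ifit3 difference was -0.43 ± 0.14 (limma adjusted p = 0.0299), and the call was lost without control array 2 (adjusted p = 0.0846), without control array 3 (adjusted p = 0.0735) or without Wt1 siRNA array 1 (adjusted p = 0.057), 2 (0.0552) or 3 (0.0579), and under median centring (adjusted p = 0.163).

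The cytoplasmic sensors of viral RNA moved apart. Ifih1, which encodes the sensor MDA5, read 8690.5, 9250.3, 10774.9 and 9526.7 on control arrays and 6369.2, 6454.8, 6769.2 and 5970.2 on Wt1 siRNA arrays. Every Wt1 siRNA value was below every control value, and Ifih1 fell to 67.0% of control (-0.58 ± 0.08, limma adjusted p = 9.29e-05).

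Dhx58 encodes LGP2, a relative of MDA5 that modulates it and lacks the signalling domain. It read 1088.8, 948.0, 970.4 and 793.5 on control arrays and 1911.3, 2011.2, 1742.8 and 2028.6 on Wt1 siRNA arrays. The groups did not overlap and Dhx58 rose 2.03-fold (1.02 ± 0.12, limma adjusted p = 2.7e-05). A second Dhx58 probe set gave 1.33 (limma adjusted p = 0.00136), while the remaining one, at or under background on 2 arrays, gave -0.05.

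Eif2ak2 encodes PKR, the kinase that halts translation on binding double-stranded RNA. It read 2378.0, 2044.9, 2585.6 and 2682.3 on control arrays and 3466.7, 3984.0, 3632.6 and 3575.3 on Wt1 siRNA arrays. The groups did not overlap and the rise was 1.52-fold (0.60 ± 0.10, limma adjusted p = 0.000359). Of the other 2 Eif2ak2 probe sets, one gave 0.49 (limma adjusted p = 0.0265) and one 0.02 (adjusted p = 0.96).

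Smaller rises were found for 3 further type I-like genes. Parp14, a mono-ADP-ribosyltransferase, read 7206.3 to 10074.1 in control and 11007.9 to 12492.0 after Wt1 siRNA (0.49 ± 0.10, limma adjusted p = 0.00134). Trim25, the ubiquitin ligase that activates RIG-I, was higher by 0.33 ± 0.09 (limma adjusted p = 0.0137) with overlapping groups, and Ifi35 by 0.32 ± 0.10 (limma adjusted p = 0.0173) without overlap. The call of Ifi35 was lost when _s_at and _x_at probe sets were left out (0.26, adjusted p = 0.0618). Bst2, which encodes tetherin and holds budding virus at the cell surface, fell from a range of 18572.7 to 24655.2 to 16212.4 to 17896.4 (-0.32 ± 0.08, limma adjusted p = 0.00944), a call lost under median centring (-0.21, adjusted p = 0.298).

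The remaining 4 tested type I-like genes besides Oas1a and Oasl2 did not pass the threshold. Adar, which edits adenosine in double-stranded RNA, differed by 0.18 with no overlap between groups (5623.5 to 6298.6 against 6350.6 to 7252.7; limma adjusted p = 0.0671), and it passed without either array that stood apart. Xaf1 differed by 0.24 (limma adjusted p = 0.0825), and it passed without control array 2 (adjusted p = 0.0459), without Wt1 siRNA array 4 (0.0197) and without both arrays that stood apart (0.0296). Rsad2, the antiviral enzyme viperin, differed by 0.02 (95% interval -0.22 to 0.25) and the exonuclease gene Isg20 by -0.05 (-0.24 to 0.15). A second Rsad2 probe set gave 0.39 with overlapping groups (limma adjusted p = 0.203 over all probe sets). The last Rsad2 probe set gave 0.26 without overlap (limma adjusted p = 0.0825), so neither passed.

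The interferon gamma GTPases, some of which attack the membranes around intracellular microbes, were far above background on every array, with signals from 10906.0 to 73969.6. The cells had by then been grown for 48 h after transfection, in medium without interferon. Of the 6 tested, 1 was lower and 0 higher in the limma fit, which is 16.7% beside 37.3% of all tested genes, and all 6 had overlapping groups. Guanylate-binding protein gene Gbp3 read 15364.6, 16642.1, 16293.6 and 16960.4 on control arrays and 15868.7, 13895.5, 10906.0 and 11703.7 on Wt1 siRNA arrays. Control array 1 was below Wt1 siRNA array 1 and the rest of the controls were above all Wt1 siRNA arrays. The difference was -0.33 ± 0.10 (limma adjusted p = 0.022), and the call was lost without control array 2 (adjusted p = 0.0521) or 4 (0.0598), without Wt1 siRNA array 3 (0.0702) or 4 (0.0509), without both arrays that stood apart (0.0652) and under median centring (0.27).

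Gbp2 of the same family read 25594.3 to 31732.4 in control and 24632.5 to 26772.5 after Wt1 siRNA (-0.21, 95% interval -0.38 to -0.03, limma adjusted p = 0.0577), and it passed without control array 1 (-0.27, adjusted p = 0.0091) or without Wt1 siRNA array 4 (-0.23, adjusted p = 0.0373). The immunity-related GTPases Igtp (0.03, 95% interval -0.17 to 0.23), Iigp1 (0.02, -0.22 to 0.26), Irgm1 (-0.11, -0.27 to 0.05) and Ifi47 (-0.12, -0.28 to 0.05) did not pass the threshold. Together these 4 intervals span -0.28 to 0.26 on the log2 scale, so smaller shifts were not resolved. The second Iigp1 probe set, at 25323.4 to 37209.7, had the opposite sign, at -0.14 (limma adjusted p = 0.423 over all probe sets). The second Gbp2 probe set gave -0.13 (adjusted p = 0.337), so neither passed.

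The scaling of the arrays decided the count of lower GTPases. After quantile normalization 6 of 6 were lower, where 18.8% of all tested genes were: Gbp3 by -0.39 (limma adjusted p = 0.00694), Gbp2 by -0.32 (7.6e-05), Irgm1 by -0.21 (0.00477), Iigp1 by -0.21 (0.00047), Ifi47 by -0.21 (0.0028) and Igtp by -0.12 (0.0349). Under median centring 0 of 6 passed the limma threshold, where 8.63% of all tested genes were lower, with Igtp at 0.14 and Iigp1 at 0.13. Their median was -0.11 as deposited, -0.01 under centring and -0.21 after quantile normalization. For the type I-like genes the count of higher genes was 8 under each scaling, and 5, 2 and 5 were lower as deposited, under centring and after quantile normalization.

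**Figure D4:**
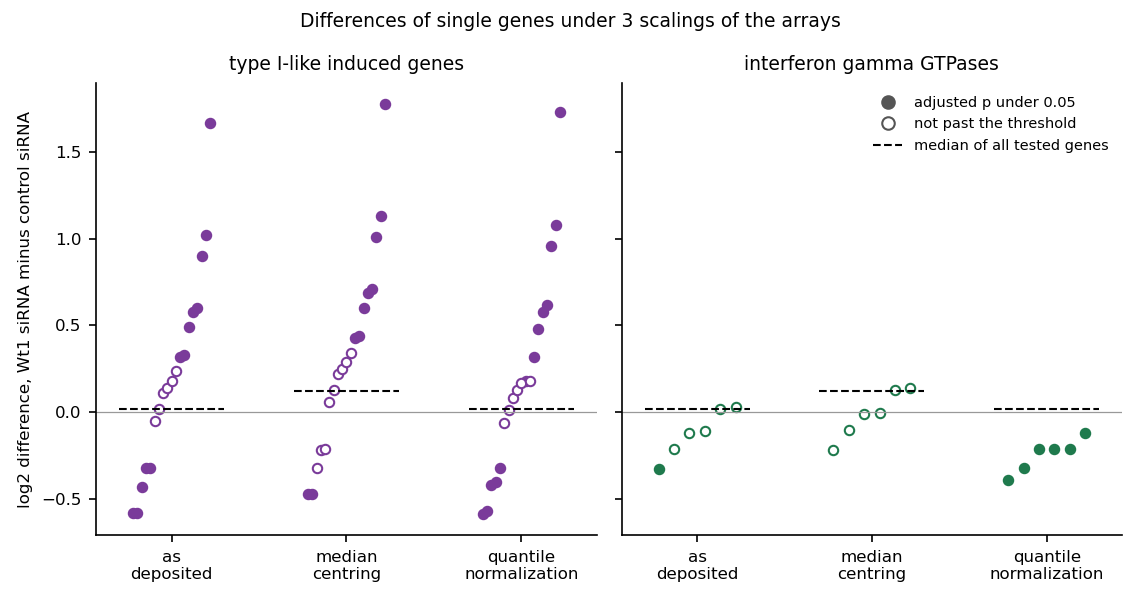
Log2 difference of each tested type I-like gene (left) and interferon gamma GTPase (right) with the arrays as deposited, centred on their median, or quantile normalized. Each circle is 1 gene, filled where the limma adjusted p was under 0.05, and dashes mark the median of all tested genes (0.02, 0.12 and 0.02); the filled GTPases number 1, 0 and 6.

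Every member probe set was also tested on its own, over the 22518 brighter probe sets. Of the 76 member probe sets 70 were tested, and 17 were higher and 7 lower, where 10.8% of all tested probe sets were higher, 12.3% lower and 23.1% called in either direction. Of the 18 members with at least 2 tested probe sets, 10 received the same result on each, and 0 were called both higher and lower. Among these 10 only Stat2 was called, and the rest agreed in not passing the threshold. Ifnar2, Ifngr2, Jak2, Ifi35, Dhx58, Trim25, Parp14 and Eif2ak2 each held a called probe set and another that did not pass. The counts of called member probe sets fell to 10 higher and 3 lower without Wt1 siRNA array 2, to 11 higher without control array 4, and to 4 lower without control array 2 or Wt1 siRNA array 3. The shares of all probe sets called with these arrays left out are not given here. Probe sets of 1 gene share their RNA and are not replicates.

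**Figure D5:**
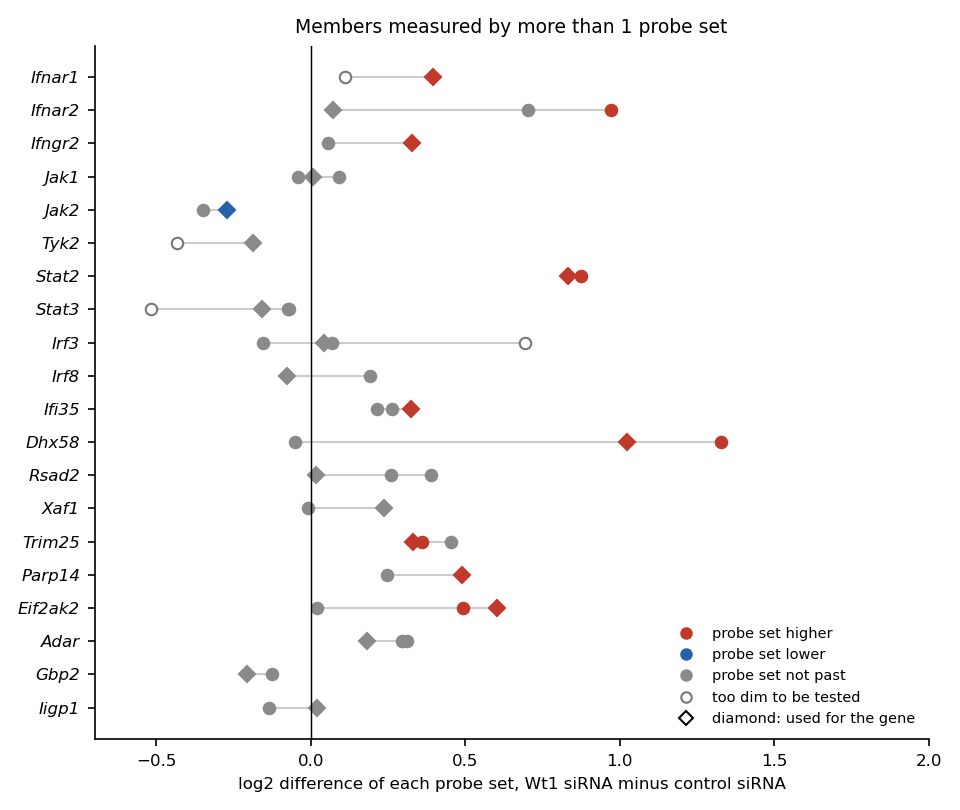
Log2 difference (Wt1 siRNA minus control siRNA) of every probe set of the 20 members with more than 1, with a diamond for the probe set used for the gene and open circles for those too dim to test. The 2 Stat2 probe sets lie together at 0.83 and 0.87, while those of Ifnar2 run from 0.07 to 0.97 and those of Dhx58 from -0.05 to 1.33.

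Other genes of the pathway, 114 by symbol, were examined the same way. Of these 97 had a probe set and 71 were tested, of which 23 were higher and 10 lower (46.5% beside 37.3%), with a median difference of 0.14. None of the 7 interferon and interleukin 6 ligand genes with a probe set was bright enough to test, and their signals ran from 7.3 to 380.7. Ifng and Ifna4 were at or under background on all 8 arrays, and Ifnb1 read 212.6 to 341.2 with 4 arrays at or under background.

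Among the 15 tested receptors and signal transducers, 5 were higher and 3 lower (53.3% beside 37.3% of all tested genes). Socs3, an inhibitor of JAK signalling downstream of interleukin 6 family receptors, read 4920.9, 5254.0, 6267.3 and 5468.0 on control arrays and 2861.2, 2444.1, 2219.0 and 2392.8 on Wt1 siRNA arrays. The groups did not overlap and Socs3 fell to 45.3% of control (-1.14 ± 0.10, limma adjusted p = 2.17e-06), with its other 2 probe sets also lower. Stat5b, a factor of cytokine and growth hormone signalling, fell to 59.6% (-0.75 ± 0.12, limma adjusted p = 0.000405), a call lost when its 2 probe sets were averaged.

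Of 13 tested genes in the list of nucleic acid sensors and their adaptors, 7 were higher and 2 lower (69.2% beside 37.3%). That list also holds Tlr4, which is not a nucleic acid sensor and did not pass, at -0.08. Zbp1, a sensor of Z-form nucleic acid, read 9496.0 to 10829.7 in control and 4712.3 to 5638.7 after Wt1 siRNA and fell to 49.5% (-1.02 ± 0.08, limma adjusted p = 7.44e-07), while its second probe set differed by -0.12 and did not pass. Tlr3, the endosomal receptor for double-stranded RNA, read 1900.3 to 2176.9 in control and 808.2 to 1274.2 after Wt1 siRNA, a fall to 50.4% (-0.99 ± 0.14, limma adjusted p = 0.000112). Ikbke, a kinase that phosphorylates IRF3, rose 1.56-fold (0.64 ± 0.16, limma adjusted p = 0.00624). Mavs, the mitochondrial adaptor of RIG-I and MDA5, and Ddx58, which encodes RIG-I, were chosen for mention after their values were seen, and they were higher by 0.57 ± 0.11 (limma adjusted p = 0.00108) and 0.23 ± 0.07 (adjusted p = 0.013). The call of Ddx58 was lost under median centring and in the mean over probe sets.

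Of 38 further induced genes tested, 11 were higher and 4 lower, which is 39.5% beside 37.3% of all tested genes and near the background share. Ifi30, a lysosomal thiol reductase of antigen processing, read 9405.1 to 10974.3 in control and 19438.3 to 21246.2 after Wt1 siRNA, a 2.05-fold rise (1.04 ± 0.07, limma adjusted p = 3.03e-07). Apobec3, a cytidine deaminase that restricts retroviruses, rose 1.63-fold (0.71 ± 0.13, limma adjusted p = 0.00099), and Trim21, a cytosolic antibody receptor and ubiquitin ligase, fell to 62.5% (-0.68 ± 0.10, limma adjusted p = 0.000225). Of the 5 tested interferon gamma targets and further GTPases, 0 were higher and 1 was lower in the limma fit (20% beside 37.3%). The lower one was Wars, which does not encode a GTPase (-0.58 ± 0.07, limma adjusted p = 4.9e-05). The GTPase genes Gbp6, Gbp7 and Irgm2 did not pass, nor did Cd274.

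Markers of other cell types were measured beside these genes. Of 12 leukocyte markers, 11 had a probe set, and their summed signal was 5781.4 to 6173.3 in control and 5952.4 to 6525.0 after Wt1 siRNA, with Ptprc and Itgam at or under background on all 8 arrays. That sum joins opposite changes, since the mean of Cd68 rose from 1090.5 to 2163.8 and that of Csf1r fell from 1337.5 to 785.2. Adgre1, too dim to test, had means of 585.2 in control and 324.0 after Wt1 siRNA. Cd14 did not pass the threshold, at 0.15. The 8 endothelial markers summed to 4868.9 to 5315.0 and 3564.5 to 3927.9, with Pecam1, Tek, Tie1 and Vwf at or under background on all 8. Most of that sum was Kdr and Cd34, the 2 endothelial markers tested, which were lower by -0.45 ± 0.11 and -0.47 ± 0.12 (limma adjusted p = 0.00539 and 0.00658), calls lost under median centring. The 6 apoptosis and stress markers summed to 45872.4 to 49614.5 in control and 58315.9 to 67253.4 after Wt1 siRNA. Of the 6, 4 were called higher (66.7% beside 18.8% of all tested genes), among them Ddit3 by 0.78 ± 0.09 (limma adjusted p = 3.07e-05). The call of Ddit3 was lost when its probe sets were averaged. Atf3 and Hspa1a differed by -0.24 and -0.12 and did not pass the threshold. Cdkn1a alone read 28924.5 to 29910.0 and 35190.9 to 44068.7, so these sums are mostly that probe set. Their part in the interferon gene differences was not tested.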

How the data were processed

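RNA of 8 samples was measured on Affymetrix Mouse 430_2 arrays. For each probe set the authors deposited 1 linear intensity. Per the submitters' processing notes, the tool was MAS5, of a version not given in the sources used here. The trimmed mean signal was 1500.0 on every array, and median signals ran from 279.1 to 346.1. The number of arrays limits the precision.

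Of 45101 probe sets, 64 controls were left out, 34945 had 1 gene symbol, 932 several and 9160 none, and the last 2 kinds were not named. Each gene took its probe set of highest mean log2 signal, and the brighter share of 0.5 was tested, down to a mean signal of 663.9 for genes and 291.1 for probe sets. Log2 intensity, with no further normalization, was fitted with limma 3.58.1 (lmFit, eBayes with trend) in R 4.3.3. Tests were two-sided, p-values were adjusted by Benjamini-Hochberg and the threshold was 0.05. The procedure was tested on simulated data. Errors are the SE for log2 differences and the SD for signals. Motifs and figures were made in Python 3.11.15 with matplotlib 3.10.9.

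Named genes were Wt1, all members (every array where called with an absolute difference of at least 0.5) and the 8 other pathway genes called with the largest differences. Further pathway genes and single markers given with values fall outside this rule and were chosen after their values were seen. Marker and pathway lists were set by hand. The members and lists were chosen with earlier results of these data known. Same-numbered replicates did not deviate together (correlations of deviations from group means -0.037, -0.062, 0.043 and 0.082), so numbers were not treated as pairs. Alternatives were quantile normalization, median centring, an added 16 or 64, other signal filters, other eBayes settings, the mean over probe sets, no _s_at or _x_at probe sets, a replicate block and each array left out. Leaving out both arrays that stood apart was chosen after seeing the data.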

Additional observations from a re-analysis of the deposited data

Results flagged for a closer look

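In groups of 4 arrays, 5 of 86 groups examined held a value far from the other 3 by Dixon's criterion, and chance gives about 1 in 20. Control array 3 was low for Stat2, at 2953.5 against 4436.1 to 4601.5 on the other controls. It was also low for Ifnar2, at 2559.2 against 3156.1 to 3200.5, and for Socs1, at 687.1 against 1170.9 to 1276.7. Irf8 was low on control array 2, at 714.6 against 801.0 to 805.6, and high on Wt1 siRNA array 4, at 830.9 against 702.0 to 720.8.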

How the results depend on the processing

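Of the 20 called members, 11 (8 higher and 3 lower: Stat2, Oas2, Oas3, Oasl1, Dhx58, Trim25, Parp14, Eif2ak2, Irf9, Ifit2 and Ifih1) kept call and direction under every one of the 20 alternatives in which they were tested, and 0 called members reversed. Of the 22 not called, 9 passed under at least 1. After quantile normalization 13 members, 6 GTPases and 13 member probe sets were lower, and Jak1 (-0.03), Irf8 (0.01), Igtp (-0.12) and Iigp1 (-0.21) turned sign. Under median centring 3 members, 2 type I-like genes, 0 GTPases, 6 other pathway genes and 3 member probe sets were lower, and Irf8 (0.03) and Isg20 (0.06) turned. In the brightest 0.25 of genes, where 32 members and 15 type I-like genes were tested, 6 members and 4 type I-like genes were higher. The share of all tested genes called is given only as deposited, under centring and after quantile normalization. Counts under the other settings therefore have no such share beside them. The mean over probe sets turned Irf8 (0.06) and Iigp1 (-0.06), and leaving out _s_at and _x_at probe sets turned Irf3 (-0.16) and left no value for Wt1. Without both arrays that stood apart, 13 members were higher and 6 lower, 0 GTPases were lower, and Jak1 (-0.02), Irf3 (-0.04), Isg20 (0.04), Igtp (-0.0016) and Iigp1 (-0.05) turned.

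Leaving out each array in turn gave 12 to 14 members higher and 5 to 9 lower, 8 to 10 type I-like genes higher and 4 to 5 lower, 0 to 2 GTPases lower, 18 to 26 other pathway genes higher and 8 to 13 lower, and 10 to 17 member probe sets higher and 3 to 8 lower. Lower members numbered 5 without control array 2. Lower GTPases numbered 2 without control array 1 and 0 without control array 2, control array 4 or Wt1 siRNA array 3. Differences ran from -0.03 to 0.04 for Jak1, -0.04 to 0.07 for Igtp, -0.08 to 0.07 for Iigp1, -0.01 to 0.14 for Usp18, -0.01 to 0.11 for Ifnar2, -0.02 to 0.11 for Irf3, -0.02 to 0.30 for Oas1b, -0.06 to 0.14 for Rsad2 and -0.12 to 0.01 for Isg20. With the replicate number as a block, 12 members were higher and 8 lower, and 17 member probe sets were higher and 5 lower. Without the share of all genes called in the same setting, these counts do not show whether the members moved differently from other genes. The causes were not tested.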

Other observations

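Several members lie beside each other on the chromosome, by RefSeq GRCm38.p6, and 3 runs of consecutive protein-coding genes, chosen after their values were seen, are given here. On chromosome 16 the genes Ifnar2, Il10rb, Ifnar1 and Ifngr2 differed by 0.07, 0.49 ± 0.07, 0.39 ± 0.10 and 0.33 ± 0.10. Il10rb, a receptor chain shared by interleukin 10 and lambda interferons, was called (limma adjusted p = 0.000191), a call lost when its 2 probe sets were averaged. Averaging also lost the calls of Ifnar1 (0.25, adjusted p = 0.25) and Ifngr2 (0.19, adjusted p = 0.0794), while Ifnar2 then passed (0.58, adjusted p = 0.00466). On the same chromosome the neighbours Parp14, Dtx3l and Parp9, whose products act in ADP-ribosylation and ubiquitination, were higher by 0.49 ± 0.10, 0.25 ± 0.08 and 0.33 ± 0.08 (limma adjusted p = 0.00134, 0.0294 and 0.00805), and the call of Dtx3l was lost in 8 of 20 alternatives. On chromosome 11 the neighbours Stat5b, Stat5a and Stat3 did not go one way, at -0.75 ± 0.12, 0.31 ± 0.12 and -0.16 ± 0.08, and Stat5b alone was called (limma adjusted p = 0.000405, 0.0618 and 0.147).

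Of the leukocyte markers bright enough to test, Cd68, a lysosomal protein of macrophages, was higher by 0.99 ± 0.10 (limma adjusted p = 8.66e-06) and Csf1r was lower by -0.76 ± 0.15 (limma adjusted p = 0.00125), the latter call being lost when its probe sets were averaged.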
